A study of Mus musculus with 2 samples.

Results

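Tnf, the gene of tumour necrosis factor, and 9 genes of the NF-κB feedback circuit (Nfkbia, Nfkbiz, Nfkb1, Tnfaip3, Gadd45b, Gadd45g, Icam1, Relb and Birc3) were followed through the cell types of Hepa1-6 tumours. These 10 genes, of 32285 in the deposited matrices, were chosen by symbol with earlier results from the same data known, so their levels and differences are a description without a test. Hepa1-6 is a mouse hepatoma cell line, grown here as a tumour in mice. One library came from control tumours, for which the labels name no agent, and the other from tumours treated with CD147-LYTACs at 40 mg/kg every 3 days for 4 doses. Tumours of both groups were harvested on day 12. LYTACs are lysosome-targeting chimaeras, which bind a surface protein and carry it to the lysosome, and CD147 is a surface glycoprotein that escorts lactate transporters. The labels leave the route of injection open between intraperitoneal and intravenous, and do not give the number or the age of the mice or how many tumours entered each library. In both groups CD45- and CD45+ cells were sorted and mixed again at 1 to 3, so the shares of cell types follow the sort, and libraries were made by droplet capture on the 10x Chromium platform.

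Tumour necrosis factor binds its receptors on neighbouring cells, and the kinases of the IKK complex then mark the inhibitor IκBα for destruction. Released NF-κB enters the nucleus and switches on inflammatory genes together with its own brakes, among them the gene of IκBα (Nfkbia) and that of the ubiquitin-editing enzyme A20 (Tnfaip3). In tumours, neutrophils and macrophages are known sources of the cytokine, and the feedback genes are widely used as a readout of the pathway.

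Each group was a single library, so no difference between them was tested, and every interval below is a 95% interval for counting error only. The control library held 143495332 unique molecular identifiers (UMIs, 1 per captured RNA molecule) in 8150 barcodes, and the treated library 149812326 in 9219. Cells were gated by markers, and 5847 control and 6545 treated cells received a type. The gates held 1881 control and 2034 treated hepatoma cells, 3403 and 2529 T cells, 98 and 111 natural killer (NK) cells, 178 and 1337 neutrophils, and 148 and 409 monocytes or macrophages. Leading genes of the gates included Alb and Afp for hepatoma, Cd3g for T, Klra8 for NK, S100a9 and S100a8 for neutrophils and C1qa for monocytes or macrophages. All of these were gate markers, so their lead followed from the gate and is no check of the names. Leading genes that were not gate markers included Rbp4 for hepatoma, Themis for T, Gzma for NK, Ngp and Camp for neutrophils and Pf4 for monocytes or macrophages. A further 118 control and 421 treated barcodes held markers of more than 1 lineage and were left out. The libraries shared 24 barcodes. Levels are given as CPM, the counts of a gene per 1000000 UMIs, from UMIs summed over the cells of a type.

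Promoters carried by the RefSeq table for GRCm38.p6 run from 250 bases before to 50 after a transcription start, and 7 of the 10 genes were in it, with 8 promoters. Nfkbiz, Nfkb1 and Relb were not matched. A κB-type motif on either strand, GGG followed by any 3 bases and TTCC, stood in 3 of these 8 promoters, 1 of Nfkbia and both of Tnfaip3, and in 5.56% of the 32851 promoters of the table. TATAAA on either strand stood in 6 of the 8 and in 13.6% of all. The promoters of both inhibitors with the motif are shown with that of the ligand, in which only the TATA motif was found. Capitals mark the motifs, and each sequence is on the minus strand, at chr12:55492598-55492897 for Nfkbia, chr10:19015361-19015660 for Tnfaip3 and chr17:35201958-35202257 for Tnf.
Nfkbia: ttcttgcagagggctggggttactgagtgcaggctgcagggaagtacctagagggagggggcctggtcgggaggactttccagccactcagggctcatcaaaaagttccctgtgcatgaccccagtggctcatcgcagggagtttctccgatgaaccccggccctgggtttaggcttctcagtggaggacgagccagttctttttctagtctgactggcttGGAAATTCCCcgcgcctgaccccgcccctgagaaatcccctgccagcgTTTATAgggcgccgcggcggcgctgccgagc
Tnfaip3: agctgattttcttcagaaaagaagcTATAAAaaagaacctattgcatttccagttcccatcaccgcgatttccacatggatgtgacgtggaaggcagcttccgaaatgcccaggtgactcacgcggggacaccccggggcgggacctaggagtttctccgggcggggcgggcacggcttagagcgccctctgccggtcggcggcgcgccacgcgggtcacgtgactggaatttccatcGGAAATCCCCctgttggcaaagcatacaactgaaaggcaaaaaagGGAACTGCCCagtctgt
Tnf: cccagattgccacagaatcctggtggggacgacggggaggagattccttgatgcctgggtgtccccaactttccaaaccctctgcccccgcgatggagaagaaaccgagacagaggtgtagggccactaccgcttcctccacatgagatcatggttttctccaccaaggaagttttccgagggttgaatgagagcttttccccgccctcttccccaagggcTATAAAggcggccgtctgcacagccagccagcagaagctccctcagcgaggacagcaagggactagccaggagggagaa
In Nfkbia the match GGAAATTCCC began 29 bases before the start. Tnfaip3 held GGAAATCCCC beginning 12 bases before its start and GGAACTGCCC beginning 33 bases past it. A match is a description of the letters and says nothing of binding in these cells.

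Tnf transcripts were concentrated in neutrophils, and the order of the cell types was the same in both libraries. Tnf (ENSMUSG00000024401, chr17:35199381-35202007, minus strand, GRCm38) stood at 1328 CPM (interval 1250 to 1410.2) in control and 1537 CPM in treated neutrophils. Monocytes or macrophages followed at 322 and 338 CPM, T cells at 33.9 and 49.2 CPM and NK cells at 13.3 and 27.7 CPM, the last from 8 and 16 UMIs. Hepatoma cells were lowest, at 0.597 CPM in the control and 2.11 CPM in the treated library. No neighbouring intervals in that order overlapped. Plasmacytoid dendritic cells, with 13 control and 11 treated cells, were too few for that order and held 312 and 650 CPM. After each cell was thinned to 1000 UMIs, a Tnf UMI was seen in 59.8% (52.0 to 67.2) of control and 51.4% (48.6 to 54.1) of treated neutrophils, against 0.162% and 0.199% of hepatoma cells. Without thinning these shares were 73.0% and 68.9% of neutrophils and 2.45% and 7.67% of hepatoma cells, whose median depths were 2868 and 2728 UMIs and 47459 and 44414 UMIs.

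Among these 5 types Tnf differed most between the libraries in hepatoma cells, with 57 control UMIs in 46 cells and 210 treated UMIs in 156 cells, a log2 ratio of 1.82 (1.39 to 2.27). Neutrophil markers moved with it: their summed level in hepatoma cells was 4.52 CPM in the control and 18.98 CPM in the treated library over all 12 markers, none of them at 0. At the share of the neutrophil level that this list had, neutrophil RNA in hepatoma barcodes would give 0.161 and 0.716 CPM of Tnf, and at the share of S100a8 and S100a9 alone 0.0677 and 0.555 CPM. At the share that Cxcl2, a neutrophil-attracting chemokine, had in hepatoma cells it would give 1.42 and 2.01 CPM, above the 0.597 CPM measured in the control and near the 2.11 CPM of the treated library. The part of such RNA in the Tnf difference was not tested. In T cells, Tnf was higher in the treated library by a log2 ratio of 0.54 (0.40 to 0.67), with 885 and 993 UMIs. Neutrophil RNA at the Cxcl2 share would give 2.37 and 4.85 CPM there, of the 33.9 and 49.2 CPM measured. At the share of the marker list it would give 5.68 and 6.23 CPM, and 0.178 and 0.786 CPM at that of S100a8 and S100a9. Its part in the T cell difference was not tested. In monocytes or macrophages the log2 ratio was 0.07 (-0.11 to 0.25), and in NK cells 1.06 (-0.25 to 2.49), so neither difference was detectable at this depth.

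**Figure D1:**
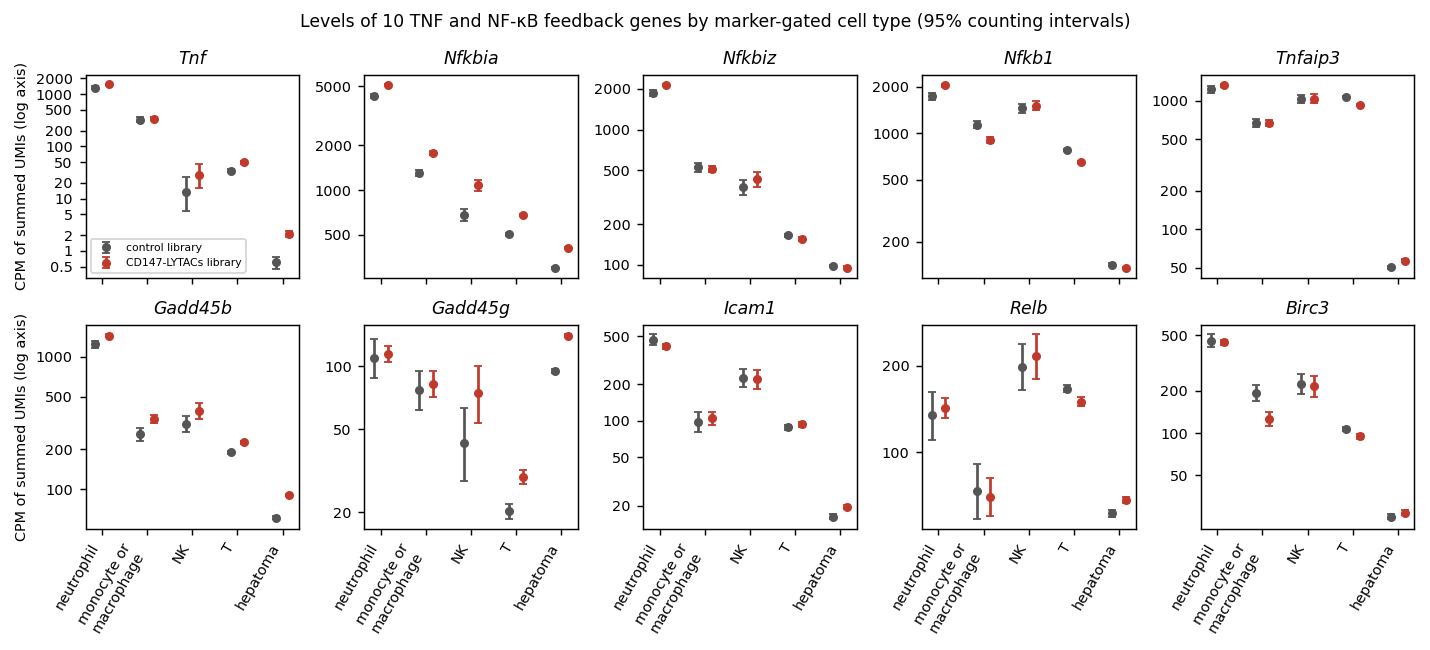
Level of each of the 10 genes (CPM of summed UMIs, log axis) in 5 gated cell types, with 1 point per library (grey, control; red, CD147-LYTACs) and bars for the 95% counting interval. Neutrophils are highest in both libraries for Tnf (1328 and 1537 CPM), Nfkbia, Nfkbiz, Nfkb1, Tnfaip3, Gadd45b, Icam1 and Birc3, NK cells for Relb, and hepatoma cells for Gadd45g in the treated library (140.2 CPM).

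Nfkbia, which encodes the inhibitor IκBα that holds NF-κB in the cytoplasm, was higher in the treated library in hepatoma, T, NK and monocyte or macrophage cells. The gene (ENSMUSG00000021025, chr12:55489410-55492647, minus strand) was at 299 CPM in control and 409.5 CPM in treated hepatoma cells, a log2 ratio of 0.46 (0.43 to 0.48). In T cells it was at 502 and 683 CPM (0.44, 0.41 to 0.48), and in monocytes or macrophages at 1299 and 1785 CPM (0.46, 0.37 to 0.54). These 3 directions held under each of the 10 alternatives run for each type. NK cells held 679 and 1075 CPM (0.66, 0.48 to 0.85). Neutrophils were at 4276 and 5118 CPM (0.26, 0.21 to 0.31), a direction that turned to -0.07 with Leiden clusters and -0.04 with a stricter neutrophil gate. Neutrophil RNA at the Cxcl2 share would give 4.57 and 6.71 CPM of Nfkbia in hepatoma cells, of the 299 and 409.5 CPM measured. Its part in the hepatoma difference was not tested. In monocytes or macrophages neutrophil markers summed to 386 and 584 CPM, and at their share neutrophil RNA would give 44.4 and 73.3 CPM of Nfkbia. It would give 1.96 and 7.38 CPM at the share of S100a8 and S100a9, and 645.9 and 739 CPM at that of Cxcl2. Cxcl2 itself was at 15.1% and 14.4% of its neutrophil level in these cells, and S100a8 and S100a9 at 0.0458% and 0.144%. How much of the Cxcl2 there was neutrophil RNA was not tested. Thinned to 1000 UMIs, a Nfkbia UMI was seen in 22.3% (20.4 to 24.2) of control and 27.6% (25.7 to 29.6) of treated hepatoma cells. The shares were 37.2% and 43.5% of T cells, 57.3% and 73.5% of monocytes or macrophages and 94.1% and 94.98% of neutrophils. No gated type lacks the gene, so these shares have no background type.

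Nfkbiz, which encodes the nuclear regulator IκBζ, followed the same order of types, from neutrophils to hepatoma cells, but with smaller differences between the libraries. Nfkbiz (chr16:55811375-55838899, minus strand) was at 1859 and 2134 CPM in control and treated neutrophils. That log2 ratio of 0.20 (0.12 to 0.28) turned to -0.13 as a mean over cells, -0.18 with Leiden clusters and -0.21 with the stricter gate. Monocytes or macrophages held 526 and 512 CPM and NK cells 373 and 431 CPM, which overlapped in the treated library. T cells held 165 and 155 CPM (log2 ratio -0.09, -0.16 to -0.02) and hepatoma cells 98.1 and 95.4 CPM (-0.04, -0.08 to 0.00). Of the 4 types with alternatives, T and hepatoma cells kept these negative signs throughout.

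Nfkb1, the gene of a precursor that is cut into an NF-κB subunit and that itself can retain other subunits, was lower in treated T cells and in treated monocytes or macrophages. Nfkb1 (chr3:135584655-135691547, minus strand) was at 783 and 653 CPM in control and treated T cells, a log2 ratio of -0.26 (-0.29 to -0.23). Monocytes or macrophages were at 1137 and 902 CPM (-0.33, -0.43 to -0.23). C1q macrophages were at 1045 and 644 CPM (-0.70, -0.84 to -0.56) and Ly6c2 monocytes at 1271 and 1259.7 CPM (-0.01, -0.17 to 0.15), and the difference between these subsets was not tested. Dendritic markers in C1q macrophages summed to 204 CPM in the control and 93.5 CPM in the treated library, with 3 and 2 of 9 at 0, and their part in the difference was not tested. Neutrophils held 1736 and 2039 CPM (0.23, 0.15 to 0.32), a positive sign under each alternative run. NK cells were second in order at 1453 and 1501 CPM, and hepatoma cells lowest at 142 and 136 CPM.

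Tnfaip3, the gene of A20, which removes and edits ubiquitin chains on the signalling complex, was nearly as high in T and NK cells as in neutrophils. Tnfaip3 (chr10:19000910-19015657, minus strand) was at 1224 and 1321 CPM in control and treated neutrophils, a log2 ratio of 0.11 (0.01 to 0.21) that turned to -0.06 as a mean over cells. NK cells held 1034 and 1036 CPM, and T cells 1076 and 929 CPM, lower in the treated library by a log2 ratio of -0.21 (-0.24 to -0.19). Intervals of T and NK cells overlapped in the control library and not in the treated one. Thinned shares moved the same way in T cells, from 66.0% (64.4 to 67.6) to 59.4% (57.5 to 61.4). Monocytes or macrophages held 673 and 672.5 CPM, and hepatoma cells 50.6 and 56.8 CPM (0.17, 0.11 to 0.22).

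Relb, the subunit of the non-canonical NF-κB pathway, was found at similar levels in T cells and neutrophils. Of the 5 types, Relb (chr7:19606217-19629438, minus strand) was highest in NK cells, at 199 CPM in the control and 216 CPM in the treated library. The NK interval overlapped that of T cells in the control library and not in the treated one. T cells held 167 and 150.3 CPM, neutrophils 135 and 143 CPM, monocytes or macrophages 73.4 and 70.1 CPM and hepatoma cells 61.4 and 68.6 CPM. The last 2 types overlapped in both libraries, as did T cells and neutrophils. T cells were lower in the treated library (log2 ratio -0.15, -0.22 to -0.08) and hepatoma cells higher (0.16, 0.11 to 0.21).

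Icam1, the adhesion molecule to which leukocyte integrins bind, was highest in neutrophils, at 467 and 412 CPM in control and treated cells. Icam1 (chr9:21015985-21028817, plus strand) thus had a log2 ratio of -0.18 (-0.34 to -0.02) there, which moved to -0.74 as a mean over cells and to 0.20 once the median of all genes was subtracted. Thinned shares were 36.1% (28.9 to 43.8) of control and 26.4% (24.0 to 28.8) of treated neutrophils. NK cells held 225 and 221 CPM, monocytes or macrophages 97.8 and 105 CPM and T cells 88.4 and 93.9 CPM. Hepatoma cells were at 16.3 and 19.5 CPM (0.26, 0.17 to 0.36).

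Birc3, an inhibitor of apoptosis that also acts as a ubiquitin ligase at the receptor complex, was lower in treated monocytes or macrophages. Birc3 (chr9:7848699-7873186, minus strand) was at 193 CPM (168 to 220.2) in control and 127 CPM (113 to 142) in treated monocytes or macrophages. The log2 ratio of -0.61 (-0.86 to -0.35) shrank to -0.30 with 4 markers per gate or with mixed barcodes kept. Ly6c2 monocytes were at 300.3 and 153 CPM (-0.97, -1.34 to -0.60) and C1q macrophages at 138 and 109.7 CPM (-0.33, -0.70 to 0.04). Neutrophils held 459 and 445 CPM, NK cells 225 and 216 CPM, T cells 107 and 94.8 CPM and hepatoma cells 25.1 and 26.9 CPM.

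Gadd45b and Gadd45g, stress-induced relatives that bind kinases of the MAPK pathways, differed from each other in where they were found. Gadd45b (chr10:80930073-80932204, plus strand) was highest in neutrophils, at 1239 and 1437 CPM in control and treated cells, a log2 ratio of 0.21 (0.12 to 0.31) that turned to -0.14 as a mean over cells, -0.22 with Leiden clusters and -0.19 with the stricter gate. It was higher in treated hepatoma cells, at 61.0 and 90.7 CPM (0.57, 0.53 to 0.62), in T cells, at 191 and 226 CPM (0.24, 0.18 to 0.30), and in monocytes or macrophages, at 259 and 339.7 CPM (0.39, 0.20 to 0.59). Those 3 directions held under each alternative run. NK cells held 312 and 391 CPM of Gadd45b (0.33, 0.04 to 0.61). Gadd45g (chr13:51846678-51848468, plus strand) stood at 95.2 CPM in control and 140.2 CPM in treated hepatoma cells, a log2 ratio of 0.56 (0.52 to 0.60). In the treated library this was above neutrophils at 115 CPM, while in the control library neutrophils at 110.2 CPM, hepatoma cells, monocytes or macrophages at 76.8 CPM and NK cells at 43.1 CPM each overlapped the next. T cells held 20.2 and 29.6 CPM (0.55, 0.38 to 0.72), treated NK cells 74.3 CPM and treated monocytes or macrophages 82.7 CPM. Fibroblasts or mural cells, with 20 control and 39 treated cells, held more of it than any of these, at 581 and 298 CPM. Their markers summed to 225 and 330.01 CPM in the hepatoma gate, and their part in the hepatoma level was not tested.

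**Figure D2:**
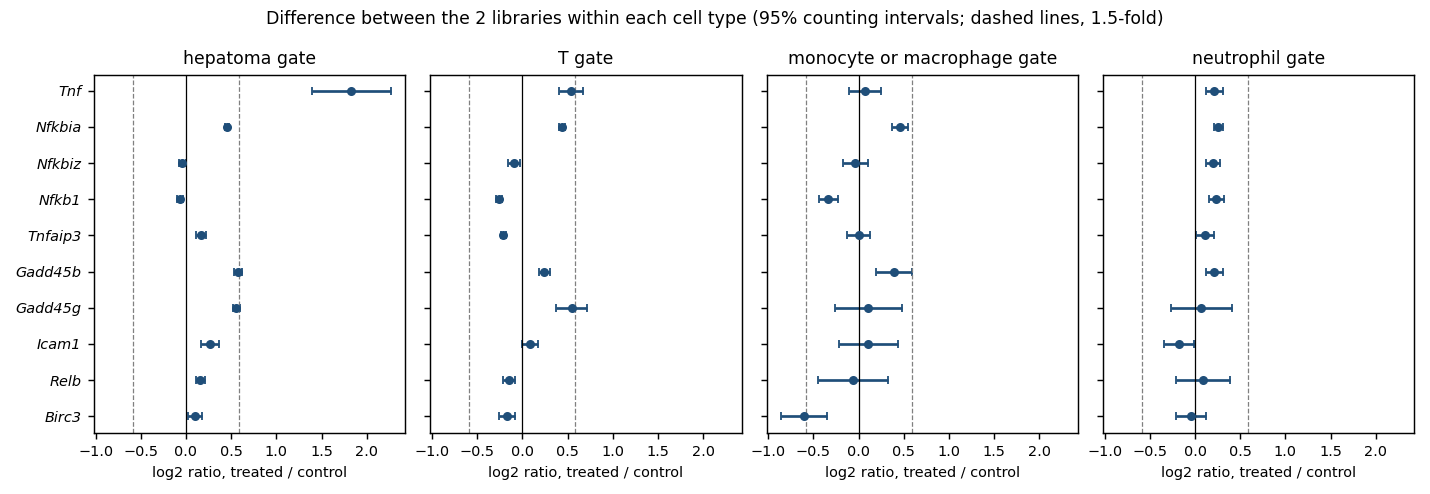
Log2 ratio of the treated over the control library for each gene in 4 gated cell types, with bars for the 95% counting interval and dashed lines at 1.5-fold. Tnf in hepatoma cells (1.82) and Birc3 in monocytes or macrophages (-0.61) lie past 1.5-fold, whereas the 10 points of T cells and the 10 of neutrophils lie within it. Neutrophil signs of Tnf, Nfkbia, Nfkbiz, Tnfaip3, Gadd45b, Gadd45g, Icam1 and Birc3 change under other settings.

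Counted by a 1.5-fold difference, few of the 10 genes stood out from the background of all genes with at least 20 UMIs. In hepatoma cells 1 of 10 was higher (Tnf) and none lower, where 4% of 17449 genes were higher and 7.19% lower. Gadd45b (1.49-fold) and Gadd45g (1.47-fold) lay just under the threshold. In T cells none passed, against 6.11% higher and 3.73% lower. In NK cells 3 were higher (Tnf, Nfkbia and Gadd45g) and none lower, against 9.27% and 12%, and of these 3 the interval of Tnf included no difference. Monocytes or macrophages had none higher and 1 lower (Birc3), against 12.4% and 10.3%. In neutrophils none was higher and none lower, where 11.2% of 8521 genes were higher and 40.5% lower. All genes tested in neutrophils had a median log2 ratio of -0.38, and the 10 genes one of 0.15. In the other types both medians lay closer: 0.21 against -0.03 in hepatoma cells, -0.00 against -0.03 in T cells, 0.16 against -0.03 in NK cells and 0.03 in both for monocytes or macrophages.

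The 178 control neutrophils bore on every neutrophil difference. The deepest 10% of these cells held 40.1% of their UMIs, against 26.2% in the treated library, and their mean depth was 4538 UMIs against 3205. Dendritic markers summed to 192 CPM in the control gate (2 of 9 markers at 0) and 73.5 CPM in the treated gate (3 at 0), and 6 of 178 against 3 of 1337 cells held at least 3 of them. With a neutrophil marker sum of at least 50 per 10000 UMIs, a setting chosen after seeing the data, 149 control and 1244 treated cells remained. The median of the 10 genes was then -0.20, as with Leiden clusters, and it was -0.10 as a mean over cells and 0.53 after subtracting the median of all genes. Icam1 alone was at least 1.5-fold lower as a mean over cells and with Leiden clusters. Gadd45g, at -0.64, was the gene past that fold with the stricter gate, where Icam1 was at -0.53. What the control cells with high depth were was not tested.

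**Figure D3:**
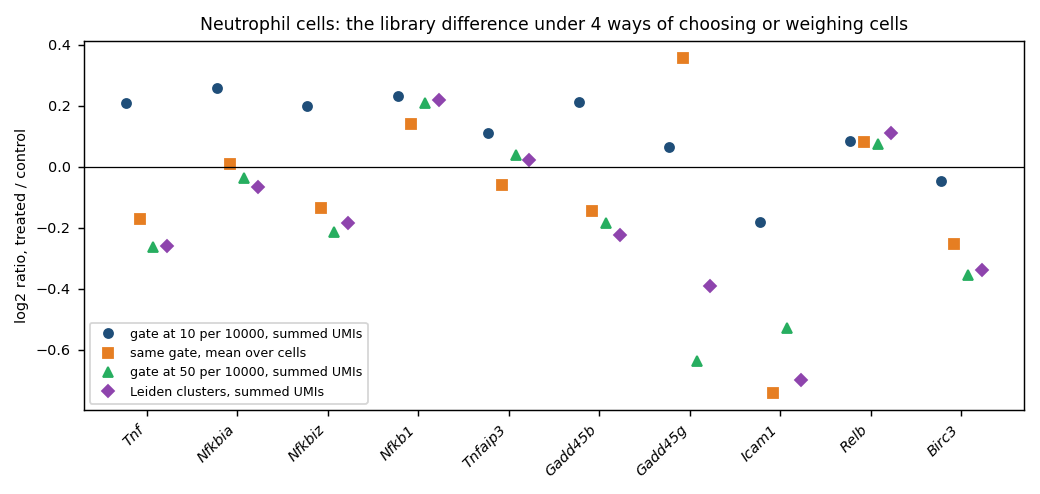
Log2 ratio of the treated over the control library for each gene in neutrophils under the main setting, as a mean over cells, with the stricter gate and with Leiden clusters. Tnf runs from 0.21 in the main setting to -0.26 with the stricter gate, while Nfkb1 stays above 0. The value of Tnf after subtracting the median of all genes, 0.59, is not drawn.

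Among neutrophils split by stefin, Slpi and Lcn2 transcripts, Tnf, Nfkbia, Nfkbiz and Gadd45b had opposite signs in the subsets, a difference that was not tested. Stefin-high cells (101 control, 1132 treated) held 1641 and 1420.2 CPM of Tnf, 5602 and 5153 CPM of Nfkbia, and 2815 and 2174 CPM of Nfkbiz. These 3 were lower in the treated library, with log2 ratios of -0.21, -0.12 and -0.37, and lower also as a mean over cells. Neutrophil markers summed to 75891 CPM in control and 45859 CPM in treated stefin-high cells. What part this difference in makeup had in the ratios was not tested. Nfkb1 was higher there, at 1549 and 2059.7 CPM (0.41, 0.29 to 0.54). Of the 10 genes none was at least 1.5-fold higher and 1 was lower, Gadd45g, against a background of 17.8% and 23.1%; Gadd45g, at 194 and 111 CPM, was higher by 0.13 as a mean over cells. Stefin-low cells (77 control, 205 treated) had 5 genes at least 1.5-fold higher and none lower, against 15.6% and 27.6%. These were Tnf at 1077 and 2144 CPM, Nfkbia at 3209 and 4933 CPM, Nfkbiz at 1090.4 and 1927 CPM, Gadd45b at 932 and 1515 CPM and Gadd45g at 42.5 and 137 CPM. As a mean over cells 1 was higher and 2 lower. The deepest 10% of the control stefin-low cells held 44.0% of their UMIs, their neutrophil markers summed to 6046 CPM against 14038 CPM in the treated library, and 6 of the 77 held at least 3 dendritic markers.

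Tnf was higher in the treated library in each T cell subset, and differences between the subsets were not tested. CD8 T cells held 33.7 and 48.0 CPM of Tnf (log2 ratio 0.51, 0.36 to 0.66) and CD4 T cells 27.9 and 56.4 CPM (1.01, 0.52 to 1.51). Regulatory T cells held 19.5 and 73.9 CPM (1.92, 0.99 to 2.94), from 13 UMIs in 84 control and 41 in 63 treated cells. In regulatory T cells neutrophil markers summed to 277 and 372 CPM (7 and 6 of 12 at 0) and dendritic markers to 925 and 770.1 CPM (7 and 4 of 9 at 0). At least 3 dendritic markers were held by 0 of the 84 control and 1 of the 63 treated cells. The part of either marker list in the Tnf difference was not tested. Nfkbia was at 457 and 626 CPM in CD8 T cells, 698 and 776 CPM in CD4 T cells and 825 and 1273 CPM in regulatory T cells. In CD8 T cells 1 of the 10 genes was at least 1.5-fold higher (Gadd45g) and none lower, against 5.78% and 3.62% of genes. In CD4 T cells 1 was higher (Tnf) and 1 lower (Icam1), against 7.77% and 7.69%. Regulatory T cells had 3 higher (Tnf, Nfkbia and Gadd45g) and 1 lower (Birc3, at 235 and 153 CPM), against 9.93% and 12%.

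Ly6c2 monocytes held more Nfkbia and Nfkbiz than C1q macrophages in both libraries. Nfkbia was at 932 and 1391 CPM in C1q macrophages (83 control, 186 treated cells) and at 2099 and 2361 CPM in Ly6c2 monocytes (57 and 197 cells). Tnf was at 294 and 271 CPM in the former and 389 and 448 CPM in the latter, and Nfkbiz at 335 and 351 CPM against 934 and 756 CPM. Each subset had none of the 10 genes at least 1.5-fold higher and 1 lower, Nfkb1 in C1q macrophages (background 13.9% higher, 11.5% lower) and Birc3 in Ly6c2 monocytes (17.3% and 13.7%). Of the types with fewer than 50 cells in a library, conventional dendritic cells (60 control, 32 treated) held 867 and 1552 CPM of Nfkbia, 410.2 and 725 CPM of Gadd45b and 1379 and 1781 CPM of Nfkb1. Relb in them, at 229 and 239 CPM, overlapped its level in NK cells.

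Neutrophils held 0.619% of all UMIs in the control and 3.15% in the treated library, and a larger share of each of the 10 transcripts except Gadd45g in the treated library (0.866% and 3.05%). They held 31.7% and 58.1% of the Tnf UMIs, 6.58% and 23.5% of Nfkbia, 8.21% and 33.7% of Nfkbiz, and 7.06% and 24.8% of Icam1. T cells held 71.5% of Tnfaip3 in the control and 48.9% in the treated library. Hepatoma cells held 88.3% and 85.9% of Gadd45g and 51.3% and 57.5% of Relb, from 73.1% and 73.2% of all UMIs. Summed over all kept barcodes, Tnf was at 26.0 CPM in the control and 83.4 CPM in the treated library, and Nfkbia at 402 and 686 CPM. These sums move with the cell types captured, and the sort set part of that mix.

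**Figure D4:**
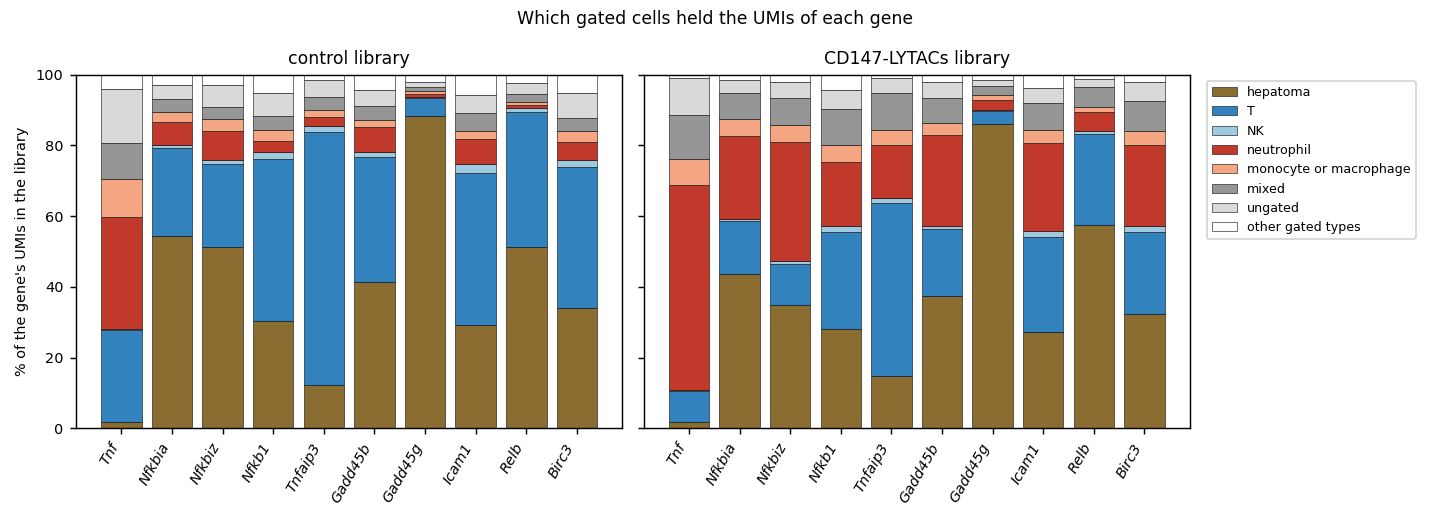
Share of the UMIs of each gene (% of all kept barcodes) that came from each cell type, with 1 bar per library. Neutrophils hold 31.7% of the Tnf UMIs in the control and 58.1% in the treated library, and hepatoma cells hold most of Gadd45g in both (88.3% and 85.9%).

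Most neutrophils held several of the 10 transcripts at once. Thinned to 1000 UMIs, control neutrophils held a mean of 5.15 and treated neutrophils 5.04 different genes of the 10, and 92.9% and 93.9% held at least 3. T cells held a mean of 2.26 and 2.24, NK cells 2.96 and 3.41, monocytes or macrophages 2.90 in each library and hepatoma cells 0.718 and 0.861. In neutrophils Icam1 went with Tnf most clearly: an Icam1 UMI was seen in 46.5% (36.5 to 56.7) of control neutrophils with a Tnf UMI and in 20.6% (11.7 to 32.1) of those without. In the treated library these shares were 37.0% (33.3 to 40.8) and 15.1% (12.4 to 18.1). Nfkbiz was seen in 87.1% against 67.6% in the control and 84.5% against 76.6% in the treated library, with no overlap of the intervals in either. Intervals of Tnfaip3 were apart in the treated library, at 70.8% against 59.3%, and overlapped in the smaller control gate, at 59.4% against 57.4%. Nfkbia, Nfkb1 and Gadd45b were likewise apart in the treated and overlapped in the control library. Birc3, at 31.1% against 32.9% in treated cells, Relb, at 12.5% against 10.5%, and Gadd45g overlapped in both libraries. Cells of 1 library share its preparation, so these shares describe cells and are not replicates.

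**Figure D5:**
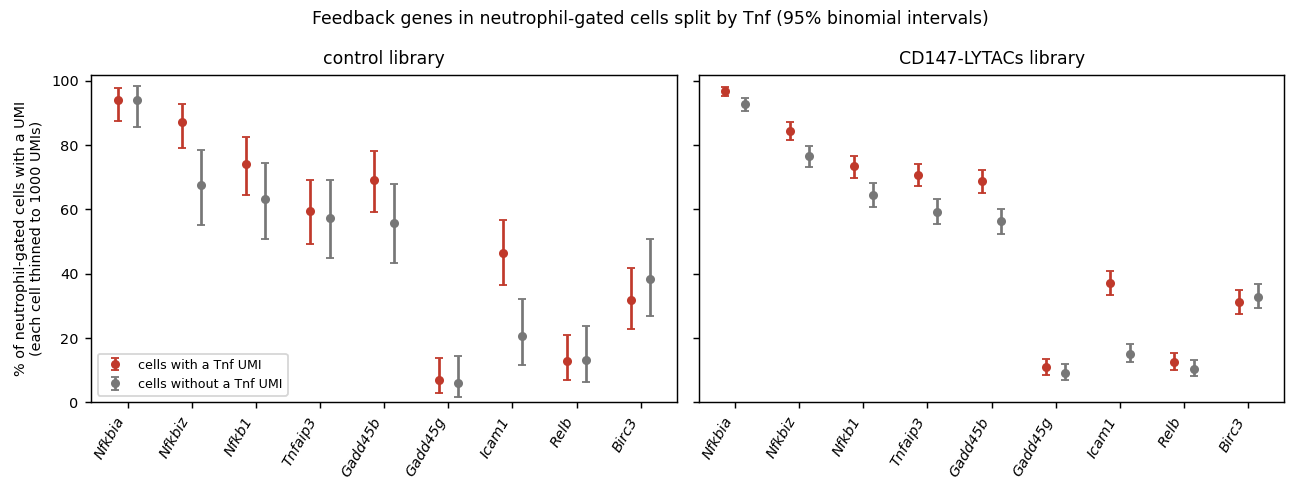
Percent of neutrophils with a UMI of each feedback gene, each cell thinned to 1000 UMIs, in cells with (red) and without (grey) a Tnf UMI, for the control (101 and 68 cells) and treated library (665 and 629 cells), with exact 95% binomial intervals. Icam1 shows the widest gap in both panels (46.5% against 20.6% and 37.0% against 15.1%), and Birc3, Relb and Gadd45g show overlapping intervals in both.

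The rest of the pathway was read from lists chosen with earlier results known, counting genes with at least 50 CPM in the higher library, a 1.5-fold difference and an interval that excluded no difference. Of 10 genes of TNF receptors, shedding and adaptors, none passed in hepatoma, T or NK cells, 1 was lower in neutrophils (Traf3, 390 and 249 CPM) and 1 in monocytes or macrophages (Traf5, 82.1 and 41.5 CPM). Of 7 kinases of the IKK complex and above it, none passed in hepatoma or T cells or in monocytes or macrophages, 1 was lower in NK cells (Tab2) and 3 were lower in neutrophils. The latter were Map3k14, the kinase of the non-canonical pathway, at 147 and 39.7 CPM, and the IKK subunits Chuk, at 52.0 and 24.0 CPM, and Ikbkb, at 78.0 and 46.0 CPM. The count of 3 was 1 with Leiden clusters, as a mean over cells and with the stricter neutrophil gate. With that gate Chuk turned to 0.03 and Ikbkb to 0.12 (log2), and with Leiden clusters to 0.30 and 0.11. None of the 3 other NF-κB subunits, Rela, Rel and Nfkb2, passed in any of the 5 types. Of 13 other inhibitors and feedback regulators, none passed in hepatoma or T cells, and in neutrophils 1 was higher (Gadd45a, 314 and 530.0 CPM) and 4 lower. Zfp36, which destabilises cytokine transcripts, was at 1036 and 581 CPM there, and Tnip3 at 91.6 and 16.6 CPM, a direction that turned to a log2 ratio of 0.16 with the stricter gate and 0.28 with Leiden clusters. The other two were the deubiquitinases Cyld (151 and 96.9 CPM) and Otulin (111 and 66.3 CPM). The 4 lower genes became 2 with mixed barcodes kept and 1 minus the median of all genes, and Gadd45a was under 1.5-fold with Leiden clusters and the stricter gate. NK cells had 1 higher, Zfp36 (187 and 308 CPM), and monocytes or macrophages 1 higher, Gadd45a (41.9 and 114 CPM), and 1 lower, Tnip3 (178 and 90.02 CPM). In neutrophils 10.2% of 3072 genes were higher by this rule and 31.3% lower. The shares were 6.03% and 8.43% in monocytes or macrophages and 4.96% and 5.86% in NK cells.

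The 17 other targets of the list, with chemokines and cytokines among them, were counted by the same rule. In neutrophils 8 were higher and 2 lower. Cxcl2 was at 26067 CPM in control and 62143 CPM in treated neutrophils (log2 ratio 1.25, 1.23 to 1.27), and Ccl4, a chemokine for lymphocytes and monocytes, at 6598 and 16467 CPM (1.32, 1.28 to 1.36). Ccl3 was at 6531 and 14870 CPM and Cxcl1 at 208 and 433 CPM, while Ccl5, at 383 and 33.6 CPM, and Vcam1 were lower. Cxcl2 was still higher by 0.77 and Ccl4 by 0.84 with the stricter gate, under which 4 of the 8 stayed at least 1.5-fold higher, as did 4 as a mean over cells. The stricter gate moved the log2 ratio of Ccl5 from -3.51 to -1.19, that of Vcam1 from -2.58 to -1.65 and that of Cxcl1 from 1.06 to 0.38. Cxcl1 was at 0.16 as a mean over cells. In monocytes or macrophages 4 were higher, among them Cxcl2 at 3938 and 8969 CPM and Cxcl1 at 260.2 and 634 CPM, and 3 lower, where 6.03% and 8.43% of genes were. In T cells 5 were higher, against 0.635% of genes higher and 0.212% lower: Il1b (18.7 and 82.9 CPM), Cxcl2 (46.5 and 196 CPM), Ier3, Ccl3 and Ccl4. In hepatoma cells 2 were higher, Cxcl2 (27.9 and 81.4 CPM) and Ier3 (187 and 282 CPM), and these were the only 2 of 3564 genes higher by this rule (0.0561%), while 0.14% were lower. With Leiden clusters 1 of these 2 stayed at least 1.5-fold higher in hepatoma cells, as did 1 as a mean over cells, and 3 of the 5 in T cells stayed so with Leiden clusters. NK cells had 2 higher, Cxcl2 and Ier3, and 1 lower, Il1b, against 4.96% and 5.86% of genes. Neutrophil markers in T cells summed to 159 and 165 CPM (2 and 1 of 12 at 0), while S100a8 and S100a9 alone were at 3.83 and 15.6 CPM in T cells and 1.46 and 11.01 CPM in hepatoma cells. The part of neutrophil RNA in these chemokine counts was not tested.

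Immediate-early and dissociation stress genes, which can respond to tissue handling, were counted in the same way. Of 15, none passed in hepatoma or T cells. In neutrophils none was higher and 6 were lower, Fosb (118 and 45.7 CPM), Hspa1b (207 and 87.7 CPM), Ier2 (269.9 and 144 CPM), Jun (952 and 539.8 CPM) and 2 others, where Fosb turned to 0.32 (log2) with the stricter gate and 0.18 with Leiden clusters, and Hspa1b to 0.38 as a mean over cells. Against that count of 6 of 15, 31.3% of neutrophil genes were lower by this rule. The count of 6 became 3 with Leiden clusters or the stricter gate and 2 as a mean over cells or minus the median of all genes. Monocytes or macrophages had none higher and 2 lower, Hspa1b and Fos, against 8.43% of genes lower, a count that was 0 with 4 markers or with mixed barcodes kept and 1 as a mean over cells. NK cells had 1 higher, Egr1, and 2 lower, Hspa1b (295 and 32.9 CPM) and Hspa1a (176 and 48.4 CPM), against 4.96% and 5.86% of genes.

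Across 20 sums (2 libraries by 10 gated types, rare ones included), each of the 10 genes was compared with 7952 genes by Pearson's r of log2(CPM + 1), as a description over points that share libraries and depth. Tnf was most like Gla (r = 0.90), Cpeb4 (0.90) and Zeb2os (0.89). Nfkbia was most like Antxr2 (0.91), Nfkbiz and Gadd45b both like Ppp1r15a (0.89 and 0.90), Nfkb1 like Nr4a3 (0.90), Tnfaip3 like Rab8b (0.90) and Icam1 like Ier5 (0.86). Relb was most like Map3k14 (0.89), then Arap2 (0.88) and Ccr7 (0.83), and Birc3 was most like Skil (0.89). Among the 10 genes themselves, Nfkbia and Gadd45b were most alike (0.87), and Tnf and Gadd45g least (-0.34).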

How the data were processed

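Single-cell RNA of 1 control and 1 CD147-LYTACs library was measured by UMI counts. Values are the deposited UMI counts, whole numbers that were not normalized. The submitters' processing notes name Cell Ranger 3.0.2 and mm10, while Cell Ranger 7.1.0 is named per the file headers; the annotation release and the treatment of intronic reads are not given in the sources used here. Groups were taken from the treatment labels. The members and gene lists were chosen with earlier results of these data known.

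Barcodes were kept from 500 UMIs and 300 genes upward with a mitochondrial share up to 15%, and those with the highest Scrublet scores were removed at 0.8% per 1000 barcodes (402 control, 535 treated), leaving 6689 and 7641. A cell type needed at least 3 different markers and a marker sum of at least 10 per 10000 UMIs; these gates and the subset rules were set after seeing the score distributions. Of the kept barcodes, 1.76% of control and 5.51% of treated ones passed 2 lineages, and 10.8% and 8.83% passed none. A type was compared where both libraries held 50 or more of its cells. UMIs were summed per library and type as CPM with exact Poisson intervals, ratios have exact conditional binomial intervals and shares exact Clopper-Pearson intervals, all at 95%. They express counting error and no spread between mice or preparations. The interval code was tested on simulated data. With 1 library per group no count model was fitted and no p-value made. Depth was 143495332 UMIs in the control and 149812326 in the treated library.

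All 10 members are given in each of the 5 main types, and in the subsets by counts with examples. Of each pathway list the text names up to 4 genes per type by ratio, and others where a count is small; the 3 genes most like a member were taken among genes with at least 50 CPM in a sum, and single ones are printed. Alternatives changed the gate, doublet removal, weights, total, centring, count filter, thinning and clustering. Tools were Python 3.11.15, numpy 2.4.6, scipy 1.17.1, pandas 2.3.3, scanpy 1.11.5 and matplotlib 3.10.9. Gene positions come from GENCODE M21 on GRCm38 and promoters from RefSeq.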

Additional observations from a re-analysis of the deposited data

Results flagged for a closer look

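Between cell types, 6 genes had a higher level in the treated library in 1 type and a lower level in another, each with an interval on its own side of 0. None of these differences between types was tested, since each type came from 1 library per group. Nfkbiz differed by 0.29 on the log2 scale, from 0.20 in neutrophils to -0.09 in T cells, and Nfkb1 by 0.57, from 0.23 in neutrophils to -0.33 in monocytes or macrophages. Hepatoma cells were the higher side of the other 4. Tnfaip3 differed by 0.38 (0.17 against -0.21 in T cells), Icam1 by 0.44 (0.26 against -0.18 in neutrophils), Relb by 0.31 (0.16 against -0.15 in T cells) and Birc3 by 0.71 (0.10 against -0.61 in monocytes or macrophages). The neutrophil signs of Nfkbiz and Icam1 turned under other settings.

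Barcodes left out of the types also differed between the libraries. In those with markers of more than 1 lineage, Tnf was at 169 CPM in the control and 284 CPM in the treated library (log2 ratio 0.75) and Gadd45g at 52.1 and 84.2 CPM (0.69). Of these barcodes, 11 control and 94 treated ones held neutrophil with monocyte or macrophage markers. In barcodes that passed no gate, Tnf was at 189 and 450.3 CPM (1.25), Nfkbia at 801 and 1341 CPM (0.74), Gadd45b at 234 and 409.6 CPM (0.81) and Gadd45g at 50.4 and 108 CPM (1.10). Which cells these were was not tested.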

How the results depend on the processing

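No paired analysis was possible because each group was 1 library and the labels give no replicate numbers. Of the log2 ratios of the 10 genes under the alternatives, 93 of 100 stayed within the main counting interval in hepatoma cells, 89 of 100 in T cells, 88 of 100 in monocytes or macrophages and 68 of 110 in neutrophils, and each turn of a sign whose interval excluded 0 lay in neutrophils. As a mean over cells Tnf turned to -0.17, Nfkbiz to -0.13, Tnfaip3 to -0.058 and Gadd45b to -0.14, and in stefin-high neutrophils Gadd45g turned to 0.13. With Leiden clusters Tnf was at -0.26, Nfkbia at -0.066, Nfkbiz at -0.18 and Gadd45b at -0.22; with a neutrophil marker sum of at least 50 per 10000, chosen after seeing the data, they were at -0.26, -0.036, -0.21 and -0.19. Minus the median of all genes, Icam1 was at 0.20. Of pathway genes in neutrophils, as a mean over cells Chuk turned to 0.049 and Hspa1b to 0.38, with Leiden clusters Chuk to 0.30, Ikbkb to 0.11, Tnip3 to 0.28 and Fosb to 0.18, and with the stricter gate the same 4 genes to 0.028, 0.12, 0.16 and 0.32. The number of genes at least 1.5-fold higher in hepatoma cells was 1 and became 2 without Scrublet removal or as a mean over cells and 3 minus the median; in T cells 0 became 1 with 4 markers, without Scrublet removal or with a total free of mitochondrial and ribosomal genes, and 2 with mixed barcodes kept. In neutrophils 0 higher became 4 minus the median, and 0 lower became 1 as a mean over cells, with Leiden clusters and with the stricter gate. In monocytes or macrophages 0 higher became 1 as a mean over cells, and 1 lower became 0 with 4 markers, with mixed barcodes kept, as a mean over cells and with Leiden clusters. The cause was not tested. Hepatoma Tnf rested on 57 and 210 UMIs and ranged from 1.71 to 2.50 over the alternatives. NK cells and the T and monocyte or macrophage subsets were measured in the main setting only.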
